A study of Sus scrofa with 4 samples.

Results

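The genes described here are enzymes and regulators of glycolysis that the deacetylase SIRT6 is known to repress. They were chosen by name, and the set holds each gene among LDHA, LDHB, GAPDH, PGK1, ENO1, HK2, PKM, PDK1, HIF1A and SLC2A1 that the table of counts lists. Of these 10 genes, 7 were among the 4381 gene symbols listed, and all 7 had enough reads to be among the 2387 genes tested. ENO1, PKM and SLC2A1 were not analysed here.

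RNA was sequenced from pooled porcine oocytes that had reached the M II stage, the metaphase of the second meiosis, in 2 control libraries and 2 SIRT6-inhibited libraries. Cumulus cell-oocyte complexes (COCs) were taken from abattoir ovaries and matured in vitro for 42 to 44 h, without inhibitor in the control group and with 100 μM SIRT6-IN-1, an inhibitor that enters cells and was dissolved in DMSO, in the SIRT6-inhibited group. The cumulus cells around the oocytes met the inhibitor as well, and the sources used here do not say whether the control medium held DMSO. The methods state that each group had 100 oocytes, but how these were divided among the libraries, how many animals they came from, and whether libraries of the same group came from separate batches of oocytes is not given, so p-values measure the spread between these libraries, which may be technical. The labels name Smart-seq2, which amplifies cDNA from small amounts of RNA, while the methods describe extraction on a column and random priming.

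The values are reads counted per gene symbol. Control libraries 1 and 2 held 4646129 and 3405960 reads on the listed genes, and SIRT6-inhibited libraries 1 and 2 held 3239200 and 4972602. Levels are given as normalized CPM, counts as a share (in CPM units) of a library total scaled by edgeR's TMM factor, and a count of 3, taken as the floor, came to between 0.625 and 0.932 normalized CPM. Floors and count intervals cover counting error alone, since reads from amplified cDNA do not stand for independent molecules. Transcript lengths were not used, so a level is compared with the same gene in another library and not with another gene. Differences between the groups were tested by edgeR's quasi-likelihood method, and p-values were adjusted over the 2387 genes tested by the Benjamini-Hochberg method.

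SIRT6 removes acetyl groups from histone H3 at lysine 9 on the promoters of glycolytic genes and restrains their activation by the transcription factor HIF1A, so that cells lacking SIRT6 are known to take up more glucose and to form more lactate. Glycolysis turns glucose into pyruvate, which lactate dehydrogenase reduces to lactate or which enters the mitochondria through pyruvate dehydrogenase. Mammalian oocytes are known to use little glucose on their own, and the surrounding cumulus cells carry out glycolysis and pass pyruvate on to them.

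The libraries held transcripts of oocytes. Of 23 oocyte markers 14 were listed and tested, led by KPNA7 and H1FOO, and their summed levels were 78107 and 79706 normalized CPM in control libraries 1 and 2, against 77369 and 78767 in SIRT6-inhibited libraries 1 and 2. Of 35 markers of cumulus and granulosa cells 27 were listed, with summed levels of 545 and 576 normalized CPM in the control libraries, against 379 and 544 in the SIRT6-inhibited libraries. Their most counted gene was BMPR1B, which oocytes express too, and 8 of the 27 had no count in any of the 4 libraries, among them FSHR, LHCGR, AMH and TNFAIP6. SIRT6-inhibited library 1 had the lowest sum and the fewest markers with any count, 8 of the 27, while each of the other libraries had 14. Of the 12 markers tested, 10 had a lower and 2 a higher fitted level in the SIRT6-inhibited group, and 0 had an unadjusted p-value under 0.05. Among all genes tested, 52.8% were lower and 9.05% passed that threshold. Below the median level of 45.5 normalized CPM, 6 of 8 markers were lower, against 58.2% of all genes there. At or above it, 4 of 4 markers were lower, against 47.5%. The part of low counts in this result was not tested. SIRT6 is inhibited as a protein, so its transcript does not check the treatment. It had 0 and 42 counts in the control libraries, against 52 and 57 in the SIRT6-inhibited libraries, which gave a log2 fold change of 1.25 (SE, the standard error, of 1.95, adjusted p = 0.980 in edgeR's test), and 0.24 without control library 1.

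Among the 7 genes, LDHA was the gene that stood apart between the groups, and it was lower in SIRT6-inhibited oocytes. LDHA encodes the A subunit of lactate dehydrogenase, the form suited to turning pyruvate into lactate. It had 32.8 and 104 normalized CPM in control libraries 1 and 2 (152 and 371 counts), against 17.7 and 9.79 in SIRT6-inhibited libraries 1 and 2 (57 and 47 counts). Both SIRT6-inhibited libraries were below both control libraries, and control library 2 was far above the other 3. The means were 68.6 ± 50.6 in control and 13.7 ± 5.60 normalized CPM in SIRT6-inhibited oocytes (SD, n = 2 each). The log2 fold change was -2.32 with a standard error of 0.71 and a 95% interval from -4.02 to -0.62 (edgeR's quasi-likelihood test, adjusted p = 0.469). The unadjusted p-value was 0.0148, which placed LDHA 74th among the genes tested.

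**Figure D1:**
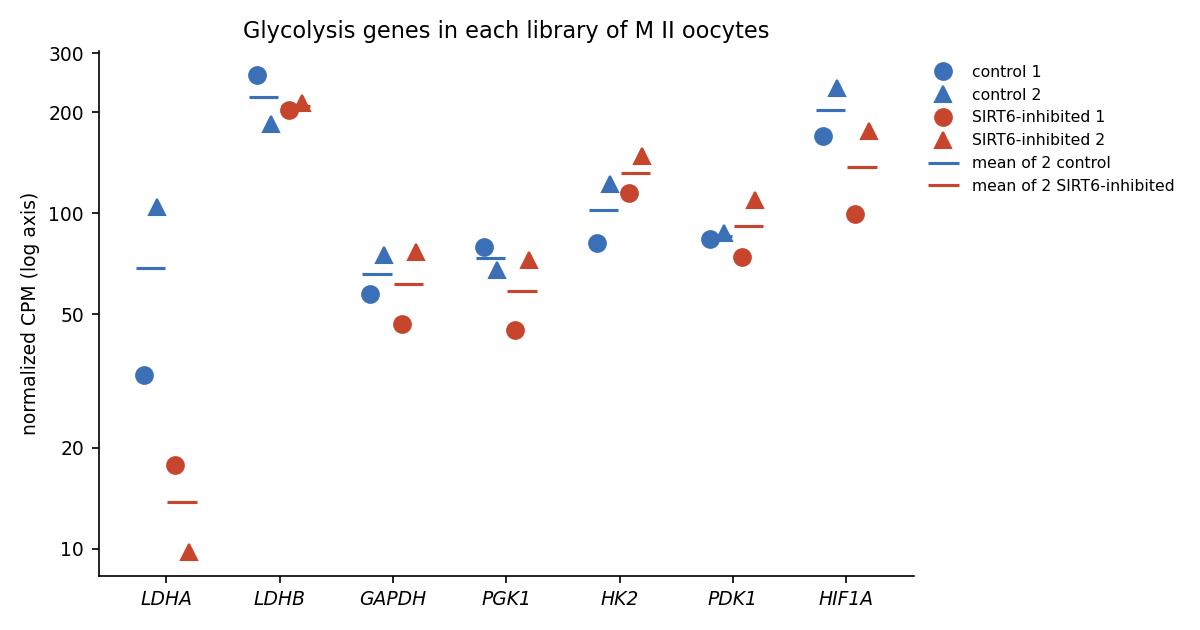
Normalized CPM of the 7 genes (log axis) in each of the 4 libraries, with control libraries in blue, SIRT6-inhibited libraries in red, circles for library 1, triangles for library 2 and horizontal lines for the means of 2 libraries. LDHA is the gene whose groups do not overlap, with 32.8 and 104 in the control libraries against 17.7 and 9.79 in the SIRT6-inhibited libraries.

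The size of the LDHA difference rested on control library 2. Without that library the log2 fold change was -1.26 and the unadjusted p-value 0.238. Without SIRT6-inhibited library 1 the log2 fold change was -2.81. A group left with 1 library was assumed to vary like the other, so p-values of such fits are not read as stronger calls. Over the settings with all 4 libraries, in edgeR, DESeq2 and limma-voom, the adjusted p-values of LDHA ran from 0.0248 to 1.00. Control library 2 was also the library with the most detected genes, 2689 against 2411 in control library 1 and 2277 and 2320 in the SIRT6-inhibited libraries, and the part of this in the result was not tested. In these bulk samples, fewer cells that carry a transcript and less of it per cell cannot be told apart. Processed pseudogenes of LDHA and GAPDH are frequent in mammalian genomes, so their counts are uncertain where reads could be shared.

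**Figure D2:**
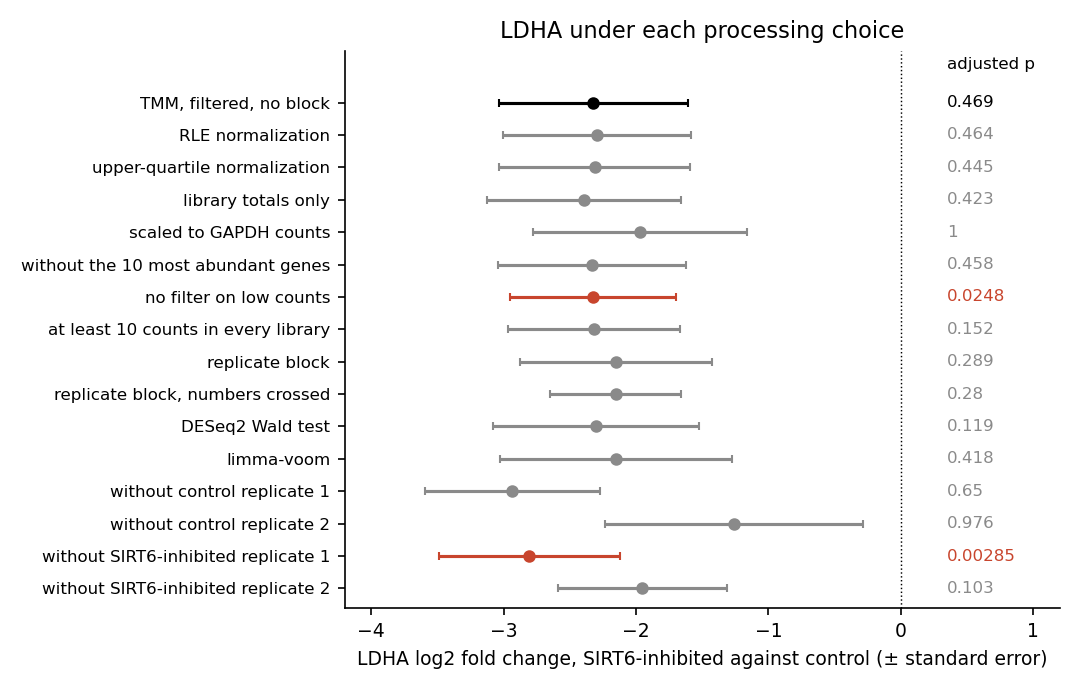
LDHA log2 fold change, SIRT6-inhibited against control, under each processing choice, as points with bars of 1 standard error and the adjusted p-value beside each. Red points have an adjusted p-value under 0.05, and the value nearest to 0 is -1.26, without control replicate 2. Fits without a replicate leave 1 library in a group, which is assumed to vary like the other group, so their p-values are not read as stronger calls.

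LDHB encodes the other main subunit, the form suited to turning lactate back into pyruvate. Its levels were 259 and 185 normalized CPM in the control libraries, against 203 and 213 in the SIRT6-inhibited libraries. The SIRT6-inhibited libraries lay between the control libraries. Its log2 fold change was -0.09 (SE 0.23, adjusted p = 0.989 in edgeR's test), with a 95% interval from -0.65 to 0.46. The porcine RefSeq annotation holds 2 records named LDHB, of 20287 bases on chromosome 5 and of 1280 bases on chromosome 2, and which of them took the reads is not given.

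The balance between both subunits was read within each library, where no scaling between libraries enters. LDHA took 11.3% of the LDHA and LDHB reads in control library 1 (exact 95% binomial interval 9.62% to 13.1%) and 36.1% in control library 2 (33.2% to 39.1%). In SIRT6-inhibited libraries 1 and 2 it took 8.02% (6.13% to 10.3%) and 4.40% (3.25% to 5.81%). Each SIRT6-inhibited library had a lower share than either control library. On the log2 scale the LDHA to LDHB ratio differed by -2.08 between the groups, against a pooled SD of 1.17 between libraries, and the difference was -1.002 without control library 2. Against GAPDH reads, LDHA stood at a ratio of 0.574 and 1.39 in the control libraries and of 0.380 and 0.128 in the SIRT6-inhibited libraries. This is a log2 difference of -2.02 with a pooled SD of 1.01, and -1.38 without control library 2. With 2 libraries in each group, 0.33 is the smallest p-value that an exact permutation test of these ratios could reach, and none was run.

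**Figure D3:**
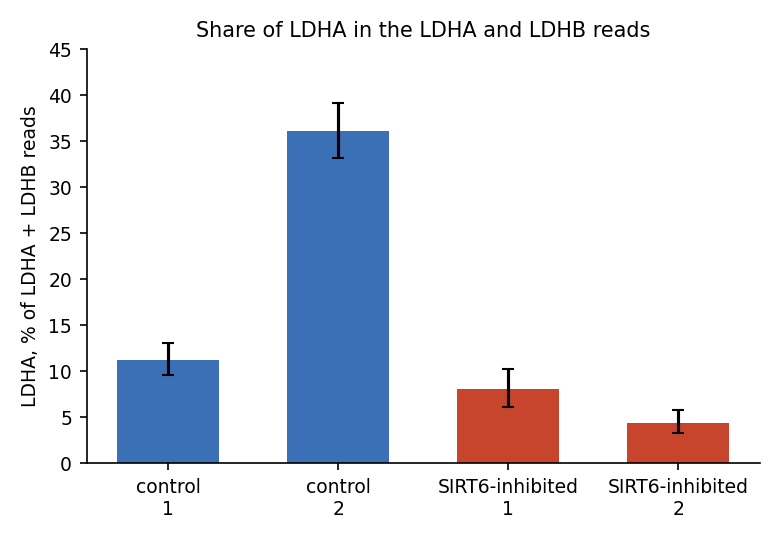
Share of LDHA among the reads on LDHA and LDHB in each library (bars, in percent) with exact 95% binomial intervals that cover counting error only. The share was 11.3% and 36.1% in the control libraries, against 8.02% and 4.40% in the SIRT6-inhibited libraries.

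LDHC, the lactate dehydrogenase subunit known from the testis, is the neighbour of LDHA. By symbol match to RefSeq on the Sscrofa11.1 assembly, LDHA lies on chromosome 2 from 40814163 to 40827284 and LDHC from 40748567 to 40810114, with 4048 bases between the genes. LDHC had 33.3 and 81.4 normalized CPM in the control libraries, against 36.0 and 23.7 in the SIRT6-inhibited libraries. Control library 2 was again the highest, but the groups overlapped, as SIRT6-inhibited library 1 was above control library 1. For LDHC the log2 fold change was -0.94 (SE 0.59, adjusted p = 0.745 in edgeR's test). The strand setting of the counting is not given, so reads from overlapping transcripts at this locus could not be separated.

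HK2 encodes a hexokinase, which traps glucose in the cell as glucose 6-phosphate at the entry to glycolysis. Its levels were 81.6 and 122 normalized CPM in the control libraries, against 115 and 148 in the SIRT6-inhibited libraries. SIRT6-inhibited library 2 was the highest and control library 1 the lowest, and the groups overlapped. HK2 had a log2 fold change of 0.37 (SE 0.31, adjusted p = 0.905 in edgeR's test), with a 95% interval from -0.37 to 1.11, and it was between 0.095 and 0.68 as each library was left out.

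GAPDH encodes glyceraldehyde 3-phosphate dehydrogenase, which yields NADH in the middle of the pathway. Its gene lies on chromosome 5 from 64129678 to 64135194 on Sscrofa11.1, by symbol match to RefSeq. GAPDH had 57.2 and 74.9 normalized CPM in the control libraries, against 46.6 and 76.4 in the SIRT6-inhibited libraries. The SIRT6-inhibited libraries were the lowest and the highest of the 4, so the groups overlapped. The means of 66.0 ± 12.5 and 61.5 ± 21.1 (SD, n = 2 each) gave a log2 fold change of -0.10 (SE 0.39, adjusted p = 0.992 in edgeR's test). The 95% interval ran from -1.03 to 0.84, and the sign turned with the libraries used, from -0.50 to 0.21 as each was left out.

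PGK1 encodes phosphoglycerate kinase, which forms ATP in the next step. It had 79.0 and 67.8 normalized CPM in the control libraries, against 44.7 and 72.3 in the SIRT6-inhibited libraries. SIRT6-inhibited library 1 was the lowest, and SIRT6-inhibited library 2 lay between the control libraries. For PGK1 the log2 fold change was -0.33 (SE 0.37, adjusted p = 0.956 in edgeR's test). It was -0.028 without SIRT6-inhibited library 1 and -0.72 without SIRT6-inhibited library 2. Within a library, the GAPDH to PGK1 read ratio was 0.724 and 1.10 in the control libraries, against 1.04 and 1.06 in the SIRT6-inhibited libraries, so it overlapped between the groups.

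PDK1 encodes a pyruvate dehydrogenase kinase, which switches off the entry of pyruvate into the citric acid cycle. The control libraries had 83.8 and 87.0 normalized CPM and the SIRT6-inhibited libraries 73.9 and 109. The SIRT6-inhibited libraries lay on either side of the control libraries. PDK1 thus had a log2 fold change of 0.10 (SE 0.32, adjusted p = 0.989 in edgeR's test), with a 95% interval from -0.65 to 0.86.

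HIF1A encodes the oxygen-regulated subunit of the hypoxia-inducible factor, which acts with SIRT6 at glycolytic promoters and is itself controlled largely through the stability of its protein. It had 170 and 235 normalized CPM in the control libraries, against 99.7 and 175 in the SIRT6-inhibited libraries. SIRT6-inhibited library 1 was the lowest, while SIRT6-inhibited library 2 was close to control library 1 and slightly above it. The log2 fold change was -0.56 (SE 0.33, adjusted p = 0.722 in edgeR's test), with a 95% interval from -1.35 to 0.23. The estimate leaned on SIRT6-inhibited library 1, since it was -0.21 without that library and -1.02 without SIRT6-inhibited library 2. With no filter on low counts the unadjusted p-value in edgeR's test was 0.0376. Over the settings with all 4 libraries, the adjusted p-values of HIF1A in edgeR, DESeq2 and limma-voom ran from 0.487 to 1.00.

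By edgeR's quasi-likelihood test, an adjusted p-value under 0.05 was found for 0 of the 7 genes and for 0 (0%) of the 2387 genes tested. At an unadjusted p-value under 0.05 the set held 1 gene, LDHA, while 216 genes (9.05%) reached it over all genes tested, 143 of them (5.99%) lower in SIRT6-inhibited oocytes. At an adjusted p-value under 0.05, DESeq2's Wald test called 37 genes over the whole table and limma-voom called 0. Groups without overlap were found for 1 of the 7 genes, again LDHA, against 958 (40.1%) of all genes tested. A lower fitted level in SIRT6-inhibited oocytes was seen for 5 of the 7 genes, against 1261 (52.8%) of all genes tested, and after scaling to GAPDH for 3 of the other 6. The median log2 fold change was -0.10 over the 7 genes (between -0.50 and -0.028 as each library was left out, with 4 to 6 genes lower) and -0.04 over all genes tested. With 1 gene called of 7, these shares do not set the 7 genes apart from the table as a whole. SIRT6-inhibited library 1 held the lowest level of the 4 libraries for 4 of the 7 genes, GAPDH, PGK1, PDK1 and HIF1A. It was also the library with the smallest total and the lowest sum of cumulus cell markers, and the part of these in the result was not tested.

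The wider pathway was described with lists of its genes. Of 37 glycolytic enzymes, the 7 genes' own enzymes included, 15 were listed, 3 of them (PGK2, PGAM2 and PFKFB1) had no count in any library, and 11 were tested. Of the 11, 8 had a lower and 3 a higher fitted level in SIRT6-inhibited oocytes, and the groups did not overlap for 3, LDHA, HK1 and TPI1. Over all genes tested, 52.8% were lower and 40.1% had groups that did not overlap. The higher genes were HK2, GPI and ALDOC, and TPI1, GPI and ALDOC are named after their values were seen. After scaling to GAPDH, 6 of the other 10 were lower and 4 higher. The median log2 fold change of the 11 was -0.23, and it was -0.67 without SIRT6-inhibited library 2, -0.078 without SIRT6-inhibited library 1 and -0.097 with at least 10 counts asked of every library. LDHA and HK1, both lower, made up the 2 whose unadjusted p-value was under 0.05, against 9.05% of all genes tested.

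HK1 encodes the hexokinase of most tissues. It had 15.1 and 43.1 normalized CPM in the control libraries (70 and 153 counts), against 3.42 and 6.25 in the SIRT6-inhibited libraries (11 and 30 counts). Control library 2 was the highest, as for LDHA, and both SIRT6-inhibited libraries were below both control libraries. The log2 fold change was -2.57 (SE 0.99, adjusted p = 0.526 in edgeR's test), with an unadjusted p-value of 0.0372. It was -1.64 without control library 2, where the unadjusted p-value was 0.405, and this p-value was also above 0.05 after scaling to GAPDH (0.0571) and in limma-voom (0.138). The related enzyme HK2 had higher fitted levels, and the difference between the hexokinases was not tested.

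**Figure D4:**
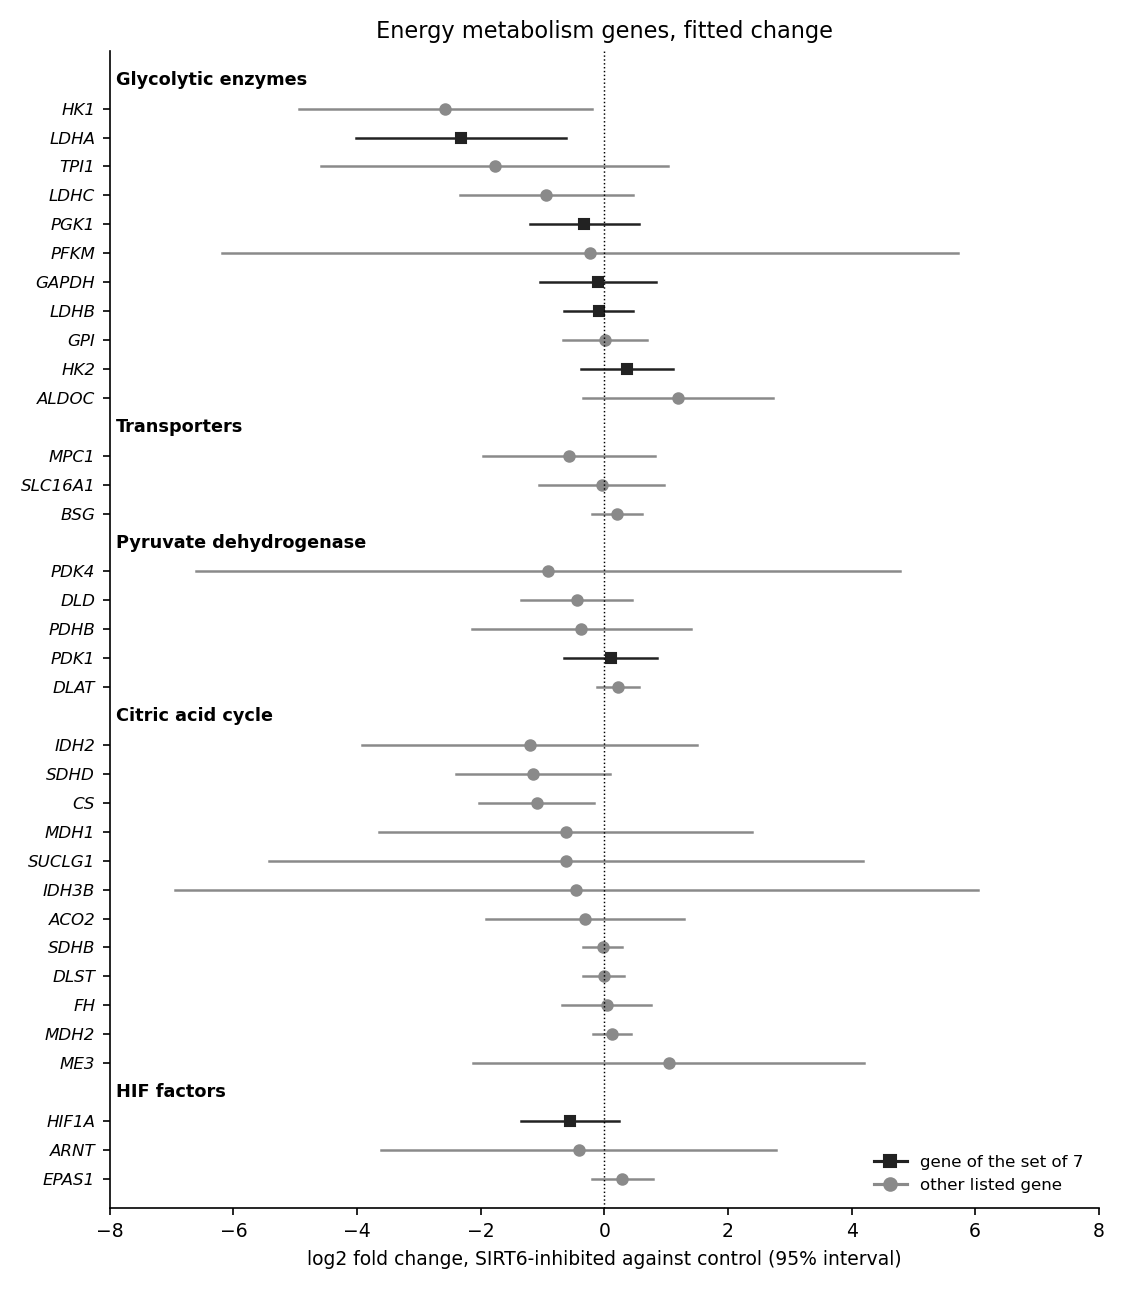
Fitted log2 fold changes, SIRT6-inhibited against control, with 95% intervals, for the tested genes of glycolysis, transport, pyruvate dehydrogenase, the citric acid cycle and the hypoxia-inducible factors, with black squares for the set of 7 genes. The intervals of LDHA (-4.02 to -0.62), HK1 (-4.94 to -0.21) and CS (-2.03 to -0.16) lie below 0.

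Of 21 transporters of glucose, lactate and pyruvate, 6 were listed and 3 tested, with 0 at an unadjusted p-value under 0.05, against 9.05% of all genes tested. BSG, the chaperone of the lactate transporters, had a log2 fold change of 0.21, between 0.11 and 0.29 as each library was left out. It had 285 and 323 normalized CPM in the control libraries, against 338 and 363 in the SIRT6-inhibited libraries. These groups did not overlap, as for 40.1% of all genes tested. SLC16A1, a transporter of lactate and pyruvate, was at -0.04 and MPC1, a subunit of the mitochondrial pyruvate carrier, at -0.57 on the same scale. For MPC1, SIRT6-inhibited library 1 stood apart, at 18.0 normalized CPM against 41.0, 47.6 and 41.7 in the other libraries, and without it the log2 fold change of MPC1 was -0.09, while without SIRT6-inhibited library 2 it was -1.30.

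Pyruvate dehydrogenase and its regulators had 13 genes on the list, of which 6 were listed in the table and 5 tested. Of these 5, 3 had a lower and 2 a higher fitted level, the median log2 fold change was -0.37, and 0 had an unadjusted p-value under 0.05. Without SIRT6-inhibited library 1 the median turned to 0.060, with 2 lower and 3 higher, and with at least 10 counts asked of every library it was -0.13. DLAT, the acetyltransferase subunit, was at 0.22 (SE 0.14), and DLD, the dehydrogenase that renews its cofactor, at -0.45 (SE 0.37). The groups did not overlap for either gene, as for 40.1% of all genes tested. DLAT was at 525 and 462 against 554 and 594 normalized CPM and DLD at 72.3 and 62.5 against 57.2 and 41.9, control libraries before SIRT6-inhibited libraries. With libraries left out DLAT was between 0.12 and 0.30 and DLD between -0.69 and -0.24.

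In the citric acid cycle, 12 of 24 genes were listed and tested. Of the 12, 9 had a lower and 3 a higher fitted level, with a median log2 fold change of -0.38, but after scaling to GAPDH 6 were lower and 6 higher, with a median of 0.034. Without control library 2 the median was 0.088, with 5 lower and 7 higher, and with at least 10 counts asked of every library it was -0.020. The median was -0.85 without control library 1, with 9 lower and 3 higher. Without SIRT6-inhibited library 2 it was -0.026, with 6 lower and 6 higher. CS, the citrate synthase that opens the cycle, was the gene of the 12 with an unadjusted p-value under 0.05, against 9.05% of all genes tested. It had 117 and 102 normalized CPM in the control libraries, against 35.1 and 67.1 in the SIRT6-inhibited libraries, so both SIRT6-inhibited libraries were lower. Its log2 fold change was -1.10 (SE 0.39, adjusted p = 0.505 in edgeR's test), with an unadjusted p-value of 0.0277. Without SIRT6-inhibited library 1 it was -0.71 with an unadjusted p-value of 0.101, without control library 1 it was -1.01 with 0.104, and after scaling to GAPDH the unadjusted p-value of CS was 0.0762. SDHD, a membrane anchor of succinate dehydrogenase, had 49.2 and 43.9 against 18.3 and 23.5 normalized CPM and a log2 fold change of -1.15 (SE 0.52, adjusted p = 0.570 in edgeR's test). The most counted genes of the cycle were close to 0 on this scale, with DLST at -0.01 and MDH2 at 0.13 (between 0.0091 and 0.23 with libraries left out).

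The transcription factors of the hypoxia response were sparsely listed, with 4 of 21 genes in the table and 3 tested. EPAS1, which encodes the alternative subunit HIF2A, had 208 and 240 normalized CPM in the control libraries, against 304 and 243 in the SIRT6-inhibited libraries. Both SIRT6-inhibited libraries were above both control libraries, SIRT6-inhibited library 2 by a small margin. The log2 fold change of EPAS1 was 0.29 (SE 0.21, adjusted p = 0.820 in edgeR's test), between 0.11 and 0.44 as each library was left out and opposite in sign to that of HIF1A, and the difference between these genes was not tested.

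Targets of the hypoxia-inducible factors outside glycolysis numbered 28 on the list, of which 16 were listed in the table and 11 tested. All 11 had a lower fitted level in SIRT6-inhibited oocytes, with a median log2 fold change of -0.97, and 2 of them had an unadjusted p-value under 0.05, against 52.8% of all genes tested lower and 9.05% at that threshold. Without control library 2, 7 were lower and 4 higher, with a median of -0.67. Without control library 1, 10 were lower and 1 higher, with a median of -0.64. The median was -1.54 without SIRT6-inhibited library 1 and -2.24 without SIRT6-inhibited library 2, with 12 targets tested in each. In limma-voom it was -2.01. After scaling to GAPDH 9 of the 11 were lower, and in limma-voom 10. The markers of cumulus and granulosa cells had lower fitted levels beside them, 10 of 12, with a median of -0.51, which was -0.21 without SIRT6-inhibited library 1 and -1.44 without SIRT6-inhibited library 2. With at least 10 counts asked of every library 6 targets were left, all lower, with a median of -0.38. Low counts went with lower fitted values in the whole table. Of the 1193 genes below the median level of 45.5 normalized CPM, 58.2% had a lower fitted level, with a median log2 fold change of -0.26, while of the 1194 genes at or above it 47.5% did, with a median of 0.02. Of the 11 targets 9 were below the median level, and the part of this in the result was not tested.

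TFRC, the transferrin receptor, had 67 and 11 counts in the control libraries, against 0 in both SIRT6-inhibited libraries, which is at least 11.3-fold lower when 3 counts are taken as the floor of each library. This bound rested on control library 1, and from control library 2 alone TFRC was at least 3.98-fold lower. Its unadjusted p-value was 0.0268, but 0.0934 in limma-voom and 0.0585 without control library 2. ERO1A, an oxidase of the endoplasmic reticulum, and LONP1, a mitochondrial protease, were the most counted targets and had log2 fold changes of -0.60 and -0.06. For ERO1A, SIRT6-inhibited library 1 stood apart at 60.6 normalized CPM, against 152 in SIRT6-inhibited library 2 and 168 and 154 in the control libraries. The log2 fold change of ERO1A was -0.09 without that library and -1.41 without SIRT6-inhibited library 2.

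GAPDH was also the gene to which the study scaled its quantitative PCR, so its steadiness across the libraries was described beside that of other reference genes. Of 28 reference genes 18 were listed and tested. Over the 4 libraries, the SD of log2 normalized CPM was 0.34 for GAPDH, which ranked 8 of 18 from the least spread, and the rank was the same with a prior count of 2 and with library totals only. The least spread was UBB, a polyubiquitin gene, with 0.10, and the most spread was TFRC with 3.46. Over all genes tested the median SD was 0.48, and 39.1% of the genes had a lower SD than GAPDH. PGK1, also used as a reference, was next in rank with 0.36. For RN18S, control library 1 stood apart at 11562 normalized CPM. Control library 2 had 2661 and the SIRT6-inhibited libraries 2609 and 3604, and the part of this in the other results was not tested. HPRT1, a purine salvage enzyme, was at 135 and 156 normalized CPM in the control libraries, against 96.9 and 58.9 in the SIRT6-inhibited libraries, with a log2 fold change of -0.91 (SE 0.32, adjusted p = 0.505 in edgeR's test) and an unadjusted p-value of 0.0285. That p-value was 0.263 after scaling to GAPDH. It was also above 0.05 without each of control library 1, control library 2 and SIRT6-inhibited library 2. Without SIRT6-inhibited library 1 the log2 fold change of HPRT1 was -1.31.

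**Figure D5:**
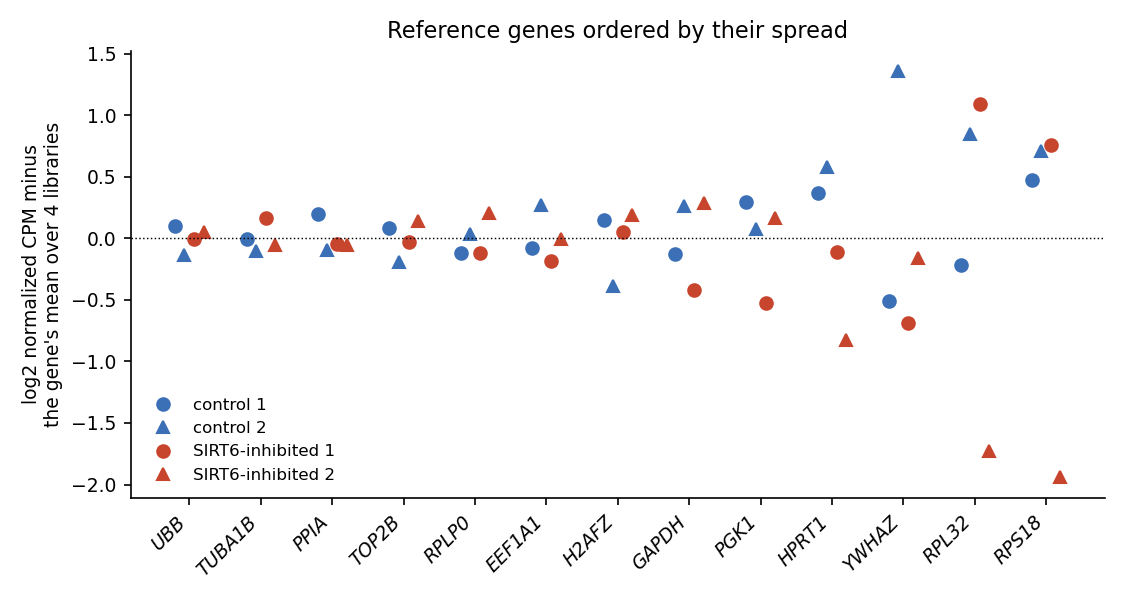
Log2 normalized CPM of reference genes minus the gene's mean over 4 libraries, ordered by spread, with control libraries in blue and SIRT6-inhibited libraries in red (circles for library 1, triangles for library 2). GAPDH has SIRT6-inhibited library 1 lowest, at -0.42, and SIRT6-inhibited library 2 highest, at 0.29, and RN18S and the genes with an SD of 2 or more, such as TFRC, are left out.

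For the genes measured by quantitative PCR, log2 differences relative to GAPDH counts were set beside the edgeR fit. The 2 values of a gene differ in both scaling and estimator. NFATC2 is a transcription factor activated by calcineurin. Relative to the GAPDH count of each library, its log2 difference was 0.81, beside 0.68 in the edgeR fit. The groups of NFATC2 did not overlap on either scale, and in normalized CPM this held for 40.1% of all genes tested. FOXO1, a forkhead transcription factor, was at 0.95 relative to GAPDH beside 0.84, and PPP1CC, a phosphatase subunit, at 0.24 beside 0.11, with overlapping groups for both. As each library was left out, FOXO1 was between 0.19 and 1.38 in the edgeR fit and between 0.047 and 1.85 relative to GAPDH. The splicing-related gene PNN was at -0.65 relative to GAPDH beside -0.86, with groups that did not overlap, and between -1.27 and -0.31 in the edgeR fit and -0.94 and -0.37 relative to GAPDH with libraries left out. SRSF10, a splicing regulator, was at -1.06 beside -1.10, and its groups overlapped relative to GAPDH but not in normalized CPM. SRSF10 was between -1.75 and -0.65 in the edgeR fit with libraries left out, and between -1.97 and -0.16 relative to GAPDH. For NFATC2 the range relative to GAPDH was 0.36 to 1.26. With only the scaling changed, edgeR fits scaled to GAPDH counts gave 0.87 for NFATC2, 1.18 for FOXO1 and 0.25 for PPP1CC. They gave -0.66 for PNN and -0.84 for SRSF10. Over the whole table, scaling to GAPDH moved the median log2 fold change by 0.16, from -0.04 to 0.12, and left 75 genes with an unadjusted p-value under 0.05 (65 lower and 10 higher) in place of 216 (143 lower and 73 higher). Relative to that shift of 0.16, LDHB, which turned from -0.09 to 0.03, moved less than the median gene.

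The genes closest in pattern to each of the 7 were found by the root mean square difference in log2 normalized CPM over the 4 libraries, after centring each gene on its mean, among the 1840 tested genes that reached 10 counts in each library. LDHA was closest to DDX46, a splicing helicase, at 0.117, followed by ERG28 at 0.319 and TMBIM6 at 0.323. DDX46 had 29.1 and 76.3 normalized CPM in the control libraries, against 13.4 and 8.33 in the SIRT6-inhibited libraries, the same order of libraries as LDHA. The distance of LDHA from the other 6 genes of the set was far greater, between 1.06 for HIF1A and 1.39 for HK2. LDHB was closest to IFRD1 (0.0157), COPG2 (0.0194) and CDO1 (0.0292), and GAPDH to PCCB (0.0390), while NELFCD was also close to it (0.0453). Within the set, GAPDH and PDK1 were 0.166 apart. PGK1 was closest to DAB1, NIT2 and H2AFY, HK2 to CLN8, SCD and S100A11, PDK1 to CENPM, MAPKAPK5 and PSMA4, and HIF1A to SLC35F5, GNA14 and DUOX2. These distances describe 4 libraries and say nothing of shared function or control.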

How the data were processed

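RNA-seq reads were counted per gene symbol, and the authors deposited raw counts for 2 control and 2 SIRT6-inhibited libraries. The submitters' processing notes name TopHat2 2.0.13, Cufflinks 2.2.1, Cuffnorm, Cuffdiff and the builds mm10 and susScr11, with no role or order. The counting tool, annotation and strand setting are not given in the sources used here. Of 4381 symbols, 4299 matched the porcine RefSeq annotation of Sscrofa11.1, which UCSC calls susScr11.

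The software was edgeR 4.0.16, DESeq2 1.42.0 and limma 3.58.1 under R 4.3.3. Genes were kept by filterByExpr (minimum count 10, minimum total 15), scaled by TMM and tested by edgeR's quasi-likelihood method, and p-values were adjusted (Benjamini-Hochberg) over 2387 genes. Library totals were between 3239200 and 4972602 counts. Log2 levels used a prior count of 0.5. The standard error is the absolute log2 fold change divided by the square root of F, and intervals cover 95%. The fit was tested on simulated data. Named genes were the 7 genes of the set and, from each list, members with an unadjusted p-value under 0.05, the 2 most abundant and the largest fold change among those that reached 10 counts in each library, with SIRT6, the quantitative PCR genes, the most and least spread reference genes and the 3 genes closest in pattern to each of the 7, though 2 genes that this rule picked are not reported here. The genes of the set and the lists were chosen with earlier results of these data known. Alternatives were RLE, upper-quartile, totals-only and GAPDH scaling, the 10 most abundant genes left out, no filter, 10 counts asked of every library, a replicate block, DESeq2's Wald test, limma-voom and leaving out each library. Quantitative PCR, imaging and blots were not analysed here.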

Additional observations from a re-analysis of the deposited data

How the results depend on the processing

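LDHA kept its sign in all 15 other settings. Its log2 fold change was between -2.39 and -1.97 in the 11 settings that used all 4 libraries, with an unadjusted p-value under 0.05 in each, and between -2.94 and -1.26 as each library was left out, where 3 of 4 fits kept it. With no filter on low counts it was -2.33 (edgeR adjusted p = 0.0248, range over settings with all 4 libraries 0.0248 to 1.00). PGK1 (-0.72 to -0.028 with libraries left out), HK2 (0.095 to 0.68) and HIF1A (-1.02 to -0.21) also kept their signs. Left-out ranges that crossed 0 were -0.32 to 0.16 for LDHB, -0.50 to 0.21 for GAPDH and -0.21 to 0.35 for PDK1. Genes with an adjusted p-value under 0.05 numbered 0 in the reported fit, 43 with no filter, 2 with at least 10 counts in every library, 37 with DESeq2's Wald test and 0 to 77 as libraries were left out; the cause was not tested. With an unadjusted one there were 216, 75 after scaling to GAPDH and 111 to 302 with libraries left out, lowest without control library 2. With the replicate block the adjusted count was 6, GDF9 among them (0.00398), the log2 fold change of LDHA -2.15, the median of glycogen and gluconeogenesis -0.457 (4 lower, 4 higher), and the unadjusted p-values of HK1, TFRC and PCK2 were 0.0618, 0.166 and 0.370. Same-numbered libraries deviated with a correlation of -0.108, which does not show whether they share a batch or day, and numbers crossed after seeing the data gave an adjusted count of 2. After scaling to GAPDH, signs turned for LDHB (0.030), SLC16A1 (0.086), DLST (0.19), RPIA (0.067), LONP1 (0.15), BMPR1B (0.12), IFRD1 (0.056) and COPG2 (0.037), where the median of all genes moved by 0.16. With library totals only they turned for UBB (-0.023), H1FOO (-0.048) and MAPKAPK5 (-0.025). SLC16A1 was at 0.079 in limma-voom, and DLST at 0.0100 with RLE and DESeq2 and 0.00017 with the upper quartile. Left-out ranges also crossed 0 for SLC16A1 (-0.43 to 0.38), DLST (-0.15 to 0.14), PRPS2 (-0.089 to 0.22), LONP1 (-0.29 to 0.20), UBB (-0.086 to 0.15), RN18S (-1.90 to 0.21), PPP1CC (-0.012 to 0.22, and relative to GAPDH -0.077 to 0.57), H1FOO (-0.11 to 0.12), BMPR1B (-0.34 to 0.18), VCAN (-1.50 to 0.37), IFRD1 (-0.30 to 0.20), COPG2 (-0.30 to 0.17), CDO1 (-0.36 to 0.12), PCCB (-0.54 to 0.11), NELFCD (-0.61 to 0.23), S100A11 (-0.067 to 0.62), CENPM (-0.15 to 0.34), MAPKAPK5 (-0.23 to 0.25) and PSMA4 (-0.13 to 0.29). A group left with 1 library was assumed to vary like the other. Genes under 10 counts in a library gave no value under the strictest filter, nor did TFRC without control library 1.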

Other observations

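Pathways that branch from glycolysis were also listed. In the pentose phosphate pathway, which draws glucose 6-phosphate off to make NADPH and ribose, 5 of 13 genes were in the table and 4 tested, 2 with a lower and 2 with a higher fitted level in SIRT6-inhibited oocytes and 0 with an unadjusted p-value under 0.05. RPIA and PRPS2, the most counted, had log2 fold changes of -0.11 and 0.063. TALDO1, the transaldolase, had 6.05 and 17.7 normalized CPM in the control libraries, against 18.3 and 23.7 in the SIRT6-inhibited libraries, a log2 fold change of 0.83 (SE 0.93, adjusted p = 0.956 in edgeR's test).

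Of 29 genes of glycogen and gluconeogenesis, 15 were in the table and 8 tested, 3 with a lower and 5 with a higher fitted level and a median log2 fold change of 0.15. The sign of this median turned in limma-voom, to -0.47 with 4 lower and 4 higher, and without SIRT6-inhibited library 1, to -1.56 with 6 lower and 3 higher. PCK2, the mitochondrial enzyme that makes phosphoenolpyruvate, had 26 and 16 counts in the control libraries, against 0 in both SIRT6-inhibited libraries, at least 6.50-fold lower when 3 counts are taken as the floor of each library, and its unadjusted p-value in edgeR's test was 0.0491, but 0.116 in limma-voom and between 0.117 and 0.424 as each library was left out. The kinases GSK3A and GSK3B, which restrain glycogen synthase, had log2 fold changes of 0.23 (SE 0.12) and -1.26 (SE 0.92), and UGP2, which makes UDP-glucose, of 0.058. Among the shuttles that carry the reducing power of NADH into mitochondria, 6 of 12 genes were in the table and 5 tested, with a median of 0.13 and 0 with an unadjusted p-value under 0.05. GOT2, the mitochondrial aspartate aminotransferase, was higher in both SIRT6-inhibited libraries, at 506 and 517 normalized CPM against 445 and 341 (log2 fold change 0.38, SE 0.17, adjusted p = 0.570 in edgeR's test). SLC25A1, the citrate carrier, was at -1.31 (SE 1.37). As each library was left out, RPIA was between -0.22 and -0.023, TALDO1 between 0.24 and 1.79, GSK3A between 0.14 and 0.31, GSK3B between -2.07 and -0.74, UGP2 between 0.0034 and 0.10, GOT2 between 0.20 and 0.57, SLC25A1 between -1.97 and -0.11, and the median of the shuttles between 0.0091 and 0.23.

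Among the 14 oocyte markers tested, 2 had an unadjusted p-value under 0.05, both lower in SIRT6-inhibited oocytes, against 9.05% of all genes tested (5.99% lower). GDF9, a growth factor that the oocyte secretes to its cumulus cells, had a log2 fold change of -1.65 (SE 0.50, adjusted p = 0.469 in edgeR's test), and ZP2, a zona pellucida protein, of -0.37 (SE 0.14, adjusted p = 0.510 in edgeR's test). For GDF9 the adjusted p-value in edgeR's test depended on the filter. On the same 4 libraries it was 0.469 in the reported fit and 6.7e-26 with no filter on low counts, and the cause was not tested. The log2 fold change of GDF9 was -0.95 without control library 2. Without control library 2 the unadjusted p-values were 0.0679 for GDF9 and 0.103 for ZP2, and for ZP2 it was 0.210 without SIRT6-inhibited library 2 and 0.780 after scaling to GAPDH.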
